A study of Mus musculus with 15 samples.

Results

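The genes described here build the ectoplasmic specialization, the actin-rich junction of the testis. They were chosen by name, as 9 of the 23510 genes listed: Nectin2, Nectin3, Cadm1, Afdn, Itga6, Itgb1, Fscn1, Espn and Eps8. RNA was sequenced from whole testes of male ICR mice, an outbred stock, in 15 libraries of 5 groups of 3. Con was labelled only as control, MNC received the lentiviral vector control, and M1, M3 and M5 received lentivirus carrying a mixture of shRNAs against the matching muscarinic acetylcholine receptor. Thus 12 libraries came from testes given virus, and the 3 Con libraries carry no vector according to their labels. The virus was injected into the testis and not aimed at one cell type, so every library mixes somatic and germ cells, treated or not.

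The ectoplasmic specialization joins Sertoli cells, the somatic nurse cells of the tubule, to elongating spermatids at the apical side and to each other at the blood-testis barrier. Nectins, CADM1 and the laminin receptor integrin α6β1 hold the membranes together, afadin ties nectins to actin, and bundling proteins such as espin, fascin and EPS8 arrange the filaments into a hexagonal array next to the membrane. In the apical junction, nectin-2 sits on the Sertoli cell and nectin-3 on the spermatid. The junction is taken apart and rebuilt at every cycle, when spermatids move and are released.

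The upstream sequences of 3 members are shown, an actin bundler, an adhesion gene and an integrin chain, because they differ in the motifs they hold. They were picked after the motifs were counted. The RefSeq promoter table (GRCm38.p6, the build that the labels name as mm10) held 8 windows for 6 of the 9 members, Espn with several. Each window is the 250 bases before a RefSeq start. Capitals mark the cAMP response element TGACGTCA, its half-site TGACG, which it contains, and the GC box GGGCGG, on either strand. The Fscn1 sequence lies at chr5:142960105-142960342 on the plus strand and stops before the first annotated exon. The Nectin3 sequence lies at chr16:46496968-46497217 on the minus strand, within the gene and in no annotated exon, before one of its starts. The Itgb1 sequence lies at chr8:128685404-128685653 on the plus strand, in no annotated exon.
Fscn1: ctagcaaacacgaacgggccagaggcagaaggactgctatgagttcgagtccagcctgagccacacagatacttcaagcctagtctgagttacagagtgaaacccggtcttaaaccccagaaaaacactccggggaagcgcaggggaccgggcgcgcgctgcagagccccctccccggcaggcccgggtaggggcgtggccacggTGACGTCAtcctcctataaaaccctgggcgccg
Nectin3: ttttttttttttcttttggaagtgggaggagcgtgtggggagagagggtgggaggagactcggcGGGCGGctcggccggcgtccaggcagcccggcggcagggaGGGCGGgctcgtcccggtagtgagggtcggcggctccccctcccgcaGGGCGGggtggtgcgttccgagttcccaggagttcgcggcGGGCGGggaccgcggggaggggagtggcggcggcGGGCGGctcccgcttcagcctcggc
Itgb1: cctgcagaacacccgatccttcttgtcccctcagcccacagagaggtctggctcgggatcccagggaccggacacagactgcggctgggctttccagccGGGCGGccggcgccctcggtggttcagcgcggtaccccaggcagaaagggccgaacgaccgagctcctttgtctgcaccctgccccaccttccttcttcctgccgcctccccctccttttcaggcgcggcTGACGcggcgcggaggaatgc
The Fscn1 window held 1 complete TGACGTCA, whose first base is at -45 from the RefSeq start. This motif was present in 1.55% of the 32851 windows of the table. The Nectin3 window held 5 GC boxes and no TGACG. The GC box was present in 32.7% of windows. The Itgb1 window held 1 TGACG, at -21, and 1 GC box, at -151. TGACG was present in 17.8% of windows. These are matches of letters, and binding was not measured here.

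All 9 genes were detected in all 15 libraries and passed the filter for testing, a mean of 1 or more FPKM, as did 14514 genes. FPKM is the fragment count scaled by gene length and library size, so levels can be set side by side between genes. Nectin3 was by far the highest, with a mean of 187.9 FPKM over the 15 libraries, above 96.9% of the genes tested. Espn followed at 31.7 FPKM, then Nectin2 at 26.1, Cadm1 at 23.0, Itgb1 at 18.2 and Afdn at 11.3. Fscn1, at 4.69 FPKM, Eps8, at 3.45, and Itga6, at 3.32, were the lowest. The order had clear steps and flat stretches. Over all 15 libraries the ranges of Nectin3 and Espn did not overlap, and neither did those of Itgb1 and Afdn or of Afdn and Fscn1. The ranges of neighbours from Espn through Nectin2 and Cadm1 to Itgb1 overlapped, and so did those among Fscn1, Eps8 and Itga6. In MNC alone each neighbour pair from Nectin3 down to Itga6 was apart, and only Itga6 and Eps8 overlapped.

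**Figure D1:**
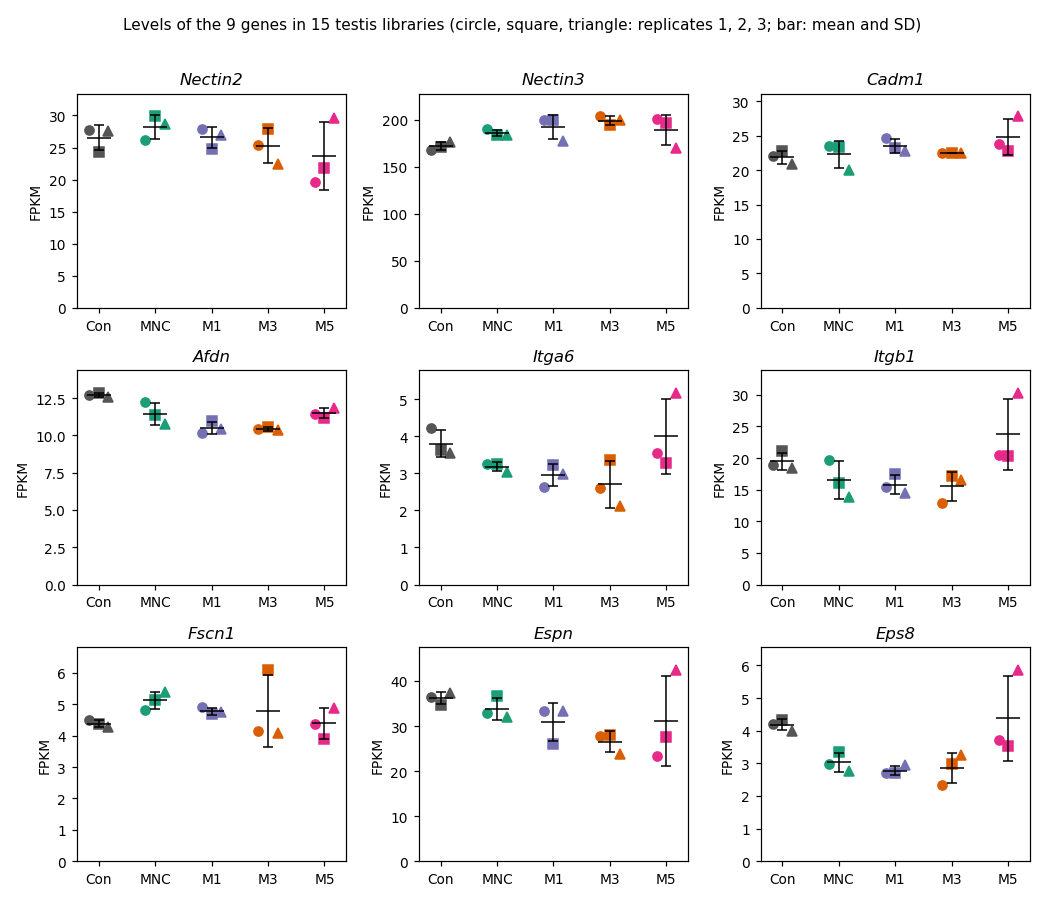
FPKM (y axis, from 0) of each gene in the 15 libraries, by group on the x axis. Symbols mark replicates 1, 2 and 3, and black bars the mean and SD of 3 libraries. M5 replicate 3 is the highest of the 15 libraries for Espn, Eps8, Cadm1, Itga6 and Itgb1.

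The genes also differed in how steady they were. The coefficient of variation over the 15 libraries was 6.68% for Nectin3, 7.52% for Cadm1 and 8.15% for Afdn. It was 11.4% for Nectin2, 12.1% for Fscn1 and 17.3% for Espn. It reached 21.4% for Itga6, 22.9% for Itgb1 and 25.9% for Eps8. By this coefficient Nectin3, Cadm1 and Afdn were the steady members, and Eps8 and both integrin chains the variable ones. Among the 4318 genes whose mean was within 2-fold of that of Itgb1, 88.8% varied less than Itgb1. Among the 4815 genes with a mean near that of Afdn, 11.5% varied less than Afdn. The same share was 80.7% for Espn, 75.5% for Eps8, 63.55% for Itga6 and 51.2% for Nectin2. It was 21.9% for Fscn1, 17.4% for Nectin3 and 14.3% for Cadm1. Set beside genes of like level, Espn thus ranked above Eps8 and Itga6.

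One library stood apart for the members and for the markers of all somatic cell types listed. M5 replicate 3 was the highest of 15 for 5 of the 9 genes, and for 9 of the 12 Sertoli cell markers on a list that includes Sox9, Wt1 and Clu. None of these 12 markers was at 0 in any library. Their summed level was 732.2 to 832.5 FPKM in Con, 614.8 to 711 in MNC, 607.2 to 702.4 in M1, 583.5 to 676 in M3 and 550.8 to 948 in M5, where replicate 3 held the highest sum of all libraries and replicate 1 the lowest. Macrophage markers (7 of 7 detected) summed to 183.4 FPKM in M5 replicate 3 and 47.9 to 144.4 FPKM in the 14 others. The sums of Leydig (3137.2 FPKM), peritubular myoid (103.7 FPKM) and endothelial markers (15.7 FPKM) were also the highest of 15 in M5 replicate 3. The share of all genes that were highest in M5 replicate 3 was not counted. Other libraries were extreme for some lists as well. Con replicate 2 was the lowest of 15 for all 8 elongating spermatid markers. M3 replicate 1 was the lowest for 5 of 6 Leydig cell markers and 5 of 7 macrophage markers. In bulk tissue, fewer cells of a type and less RNA per cell cannot be told apart. The part of these shifts in the members' values was not tested. M5 results below are also given without M5 replicate 3, by a setting chosen after seeing the data where it concerns gene lists or counts of ranges. The targeted transcripts gave no check of the groups: Chrm1, Chrm3 and Chrm5 lay between 0.01 and 0.43 FPKM in all libraries. M5 replicates 1 and 2 are told apart by their titles, since the description of the latter names the former.

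The comparison of each knockdown with MNC asked whether loss of a receptor moved the transcripts of this junction. None of the 9 genes was called in any of them (limma, Benjamini-Hochberg adjusted p under 0.05). Of all genes tested, 5.65% were called for M5 against MNC, 0.00689%, a single gene, for M3 and 0% for M1. At an unadjusted limma p under 0.05, the members were 1 of 9 for M5 (Itgb1), beside 24.9% of all genes, 1 of 9 for M3 (Espn), beside 9.43%, and 0 of 9 for M1, beside 5.94%. Nothing in the labels says that replicates were separate animals, so p-values measure the spread between these samples.

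**Figure D2:**
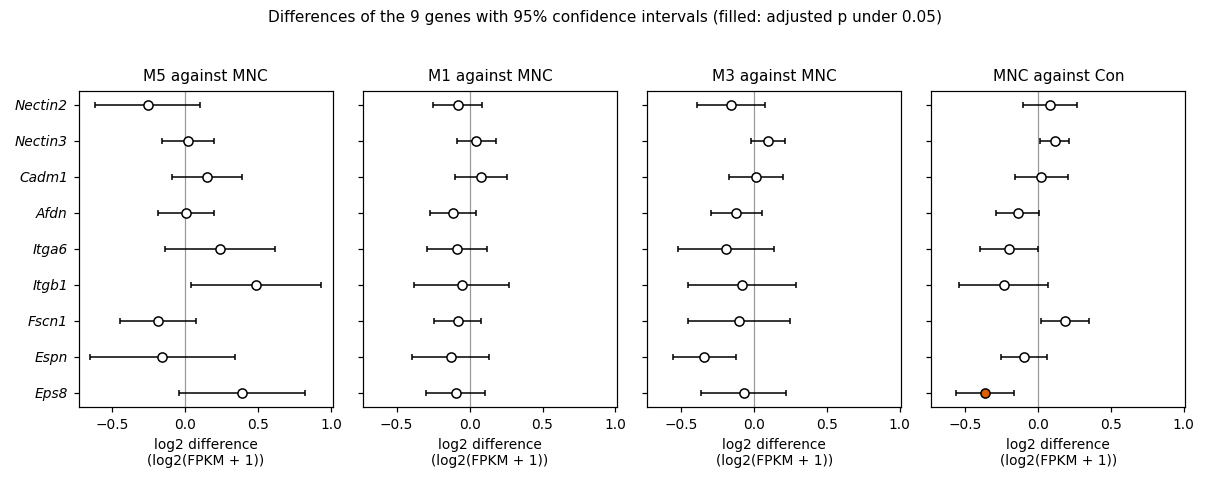
Difference of each gene in log2(FPKM + 1) (x axis) with its 95% confidence interval, in 4 panels: M5, M1 and M3 each against MNC, and MNC against Con, 3 against 3 libraries. Filled points passed an adjusted p of 0.05. In these 4 panels only Eps8 in MNC against Con is filled, at -0.36.

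Among the adhesion receptors, Nectin2, the nectin of the Sertoli cell side, was at 26.13, 29.84 and 28.62 FPKM in MNC and at 19.64, 21.83 and 29.65 in M5. M5 replicates 1 and 2 lay below all MNC libraries, and replicate 3 lay within their range. The difference on the log2(FPKM + 1) scale was -0.26 ± 0.15 (SE, n = 3 each, limma adjusted p = 0.336). Without M5 replicate 3 it was -0.43 (limma adjusted p = 0.0508), where 6.52% of all genes were called. In M1 the 3 libraries were at 27.96, 24.84 and 26.92 FPKM, and in M3 at 25.36, 27.93 and 22.49. Both overlapped MNC, with log2 differences of -0.082 (95% interval -0.25 to 0.088) and -0.16 (-0.39 to 0.074).

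Nectin3, the spermatid partner of nectin-2, was at 190.21, 184.25 and 184.14 FPKM in MNC. M5 had 200.78, 196.55 and 170.39 FPKM, so that replicate 3 was the low one. M1 had 200.02, 200.19 and 177.63 FPKM, and M3 had 203.61, 194.75 and 199.70. Only the M3 libraries all lay above MNC, by 0.098 on the log2 scale (95% interval -0.021 to 0.22, limma adjusted p = 0.535). In M5 the log2 difference was 0.020 ± 0.074 (SE), and without replicate 3 it was 0.093 (limma adjusted p = 0.218).

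The ratio of Nectin3 to Nectin2, the spermatid-side nectin over that of the Sertoli cell, was 6.63 ± 0.58 (SD, n = 3) in MNC. It was 10.2 in M5 replicate 1 and 9.0 in M5 replicate 2, the highest of the 15 libraries, and 5.75 in M5 replicate 3, the lowest. The ratio was not compared with a test. Its spread in M5 thus spanned that of all other groups.

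Cadm1, an immunoglobulin-like adhesion molecule of germ cells, was at 23.42, 23.32 and 20.04 FPKM in MNC and at 23.83, 22.79 and 27.77 in M5. M1 had 24.67, 23.13 and 22.75 FPKM, and M3 had 22.46, 22.48 and 22.52. Each knockdown overlapped MNC, and the M3 libraries, nearly equal to each other, lay just below all M1 and M5 libraries. The largest log2 difference from MNC was 0.15 in M5 (95% interval -0.094 to 0.39, limma adjusted p = 0.417), and without replicate 3 it was 0.067.

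Afdn encodes afadin, the scaffold between nectins and actin. It was at 12.24, 11.35 and 10.79 FPKM in MNC and at 11.46, 11.18 and 11.85 in M5. M1 had 10.14, 10.94 and 10.42 FPKM, and M3 had 10.42, 10.60 and 10.34. The M3 libraries all lay just below MNC, and M5 lay within its range. On the log2 scale M3 differed by -0.12 (95% interval -0.29 to 0.054), -0.11 in M1 (-0.27 to 0.045) and 0.0055 in M5 (-0.18 to 0.20), where it was -0.015 without replicate 3.

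Of the 9 members, Itgb1 had the largest difference between M5 and MNC. Itgb1, the β1 chain shared by many integrins, was at 19.71, 16.07 and 13.86 FPKM in MNC and at 20.52, 20.38 and 30.26 in M5. All M5 libraries lay above MNC, replicate 3 far above. They differed by 0.48 ± 0.19 on the log2 scale (SE, n = 3 each), with an unadjusted limma p of 0.0378 and an adjusted p of 0.172. Leaving out M5 replicate 3 gave 0.30 (limma adjusted p = 0.243). M1 (15.49, 17.50 and 14.43 FPKM) and M3 (12.95, 17.20 and 16.53 FPKM) overlapped MNC, with log2 differences of -0.053 and -0.080.

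Itga6, the α6 chain that gives the laminin receptor its specificity, was at 3.25, 3.25 and 3.03 FPKM in MNC and at 3.54, 3.28 and 5.16 in M5. All M5 libraries were above MNC, replicate 2 by only 0.03 FPKM over the highest. M5 differed by 0.24 on the log2 scale (95% interval -0.14 to 0.62, limma adjusted p = 0.399), and without replicate 3 it fell to 0.078. M1 had 2.63, 3.22 and 2.97 FPKM, and M3 had 2.61, 3.37 and 2.11. Both overlapped MNC, with log2 differences of -0.086 and -0.19.

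Of the actin bundling genes, Fscn1 encodes fascin, which cross-links parallel filaments. It was at 4.83, 5.15 and 5.39 FPKM in MNC and at 4.37, 3.90 and 4.89 in M5. M5 was lower except for an overlap of replicate 3 with MNC replicate 1. The log2 difference was -0.19 ± 0.11 (SE, n = 3 each, limma adjusted p = 0.339), and -0.25 without M5 replicate 3 (limma adjusted p = 0.146). M1 had 4.90, 4.69 and 4.75 FPKM and M3 had 4.14, 6.10 and 4.09. M3 thus held the highest Fscn1 value of all libraries beside some of the lowest. Fscn1 is the gene shown above with a complete cAMP response element before its start.

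Espn encodes espin, the bundling protein for which the ectoplasmic specialization is best known. It was at 32.79, 36.59 and 32.04 FPKM in MNC and at 23.27, 27.63 and 42.50 in M5. The M5 libraries lay on both sides of MNC, 2 below and replicate 3 above, and M5 held both the lowest and the highest Espn value of the 15 libraries. Over all 3 libraries the log2 difference was -0.16 (95% interval -0.65 to 0.34, limma adjusted p = 0.683). It was -0.40 without M5 replicate 3 (limma adjusted p = 0.0753), and without M5 replicate 1 it was 0.022.

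In M3 Espn was at 27.74, 28.11 and 23.82 FPKM, all below MNC. They differed by -0.34 ± 0.090 on the log2 scale (SE, n = 3 each), with an unadjusted limma p of 0.00788 and an adjusted p of 0.518. In M1 Espn was at 33.38, 26.11 and 33.33 FPKM and overlapped MNC (-0.13). Sertoli markers were also lower in M3 than in MNC for 9 of 12, as were 8802 of the 14514 genes tested. The Sertoli median log2 difference was -0.14 (-0.040 over all genes tested), with no marker called. Leydig, macrophage, spermatogonial, endothelial and peritubular myoid markers had medians of -0.73, -0.60, -0.19, -0.12 and -0.12. Spermatocyte, round spermatid and elongating spermatid markers had medians of 0.12, 0.026 and 0.0096. The part of these shifts in Espn was not tested.

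Eps8 encodes an actin capping and bundling protein of the same junction. It was at 2.99, 3.35 and 2.77 FPKM in MNC and at 3.73, 3.53 and 5.87 in M5. All M5 libraries were above MNC, and replicate 3 was again far above the others. The log2 difference was 0.39 ± 0.18 (SE, n = 3 each, limma adjusted p = 0.240), and 0.20 without that library (limma adjusted p = 0.259). M1 had 2.70, 2.69 and 2.94 FPKM, and M3 had 2.35, 2.98 and 3.26. Both overlapped MNC, with log2 differences of -0.094 and -0.068.

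**Figure D3:**
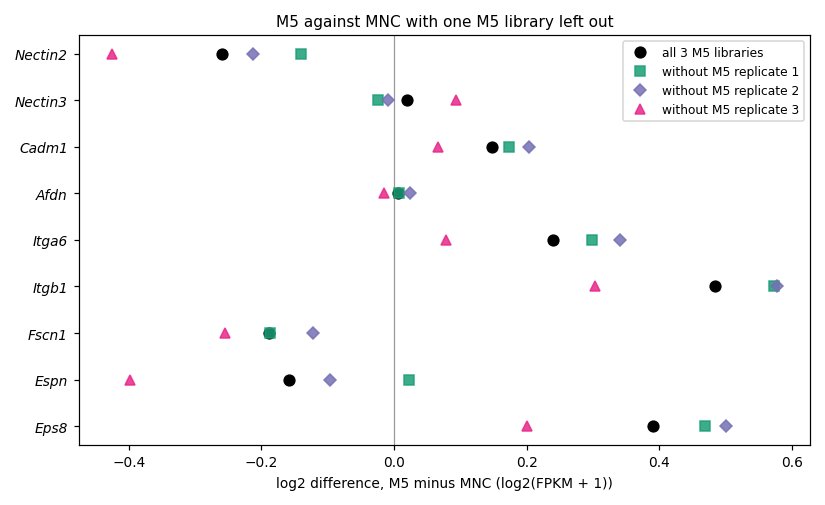
Log2 difference of each gene between M5 and MNC (x axis) with all libraries (black circles) and with one M5 library left out (coloured symbols). Without M5 replicate 3, Nectin2 and Espn move to -0.43 and -0.40, and Itgb1, Itga6 and Eps8 move toward 0.

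Counted by range, 3 of the 9 genes did not overlap between M5 and MNC, Itga6, Itgb1 and Eps8, all higher in M5. Over all genes tested, 32.1% did not overlap, 16.6% being higher in M5, so the members' share was close to the background. With M5 replicate 3 left out, 7 of 9 did not overlap (Nectin3, Itga6, Itgb1 and Eps8 higher, Nectin2, Fscn1 and Espn lower), beside 48.8% of all genes. For M3 the 3 of 9 were Nectin3, higher, and Espn and Afdn, lower, beside 17.1% of all genes. For M1 it was 0 of 9, beside 12% of all genes. The median log2 difference over the 9 genes was 0.020 in M5, -0.082 in M1 and -0.10 in M3, where all genes tested had medians of 0.025, -0.018 and -0.040. In M5 without replicate 3 the medians were 0.067 over the 9 genes and -0.024 over all genes.

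M5 and M1 were also compared directly, since the study set M5 apart from the other receptors. No member was called, beside 6.75% of all genes. At an unadjusted limma p under 0.05 there were 2 of 9, Eps8 and Itgb1, beside 25.4% of all genes. Ranges did not overlap for 4 of 9, beside 33.7% of all genes, all of them higher in M5 (18.8% of all genes): Itgb1 (log2 difference 0.54 ± 0.16 SE, limma adjusted p = 0.0987), Eps8 (0.48 ± 0.17 SE, limma adjusted p = 0.142), Itga6 (0.33, limma adjusted p = 0.260) and Afdn (0.12, limma adjusted p = 0.317). With all 5 groups in one fit Eps8 passed the threshold (limma adjusted p = 0.0488), beside 9.51% of all genes. Without M5 replicate 3, Itgb1 (0.36, limma adjusted p = 0.0588) and Eps8 (0.29, limma adjusted p = 0.0666) stayed above 0, and Nectin2 was called lower in M5 (-0.34, limma adjusted p = 0.0464), beside 11.6% of all genes called. In that fit Itga6 was at 0.16 and Afdn at 0.10, and neither was called. Ranges then did not overlap for 6 of 9, the same 4 higher in M5 and Nectin2 and Fscn1 lower, beside 49.9% of all genes.

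MNC was compared with Con to see which of these transcripts differ where the vector was given without a receptor target. Between MNC and Con, 20.4% of all genes were called and 1 of the 9 members, Eps8. It was at 4.22, 4.32 and 4.0 FPKM in Con, above all MNC libraries (2.99, 3.35 and 2.77). The log2 difference was -0.36 ± 0.082 (SE, n = 3 each, limma adjusted p = 0.0337). This call was lost when any one of the 6 libraries was left out, with limma adjusted p from 0.0553 to 0.117, while the difference stayed between -0.31 and -0.42. The calls over all genes fell as well. Without Con replicate 1, 2 and 3, 0.0551%, 1.34% and 9.25% of all genes were called. Without MNC replicate 1, 2 and 3 it was 17.2%, 4.4% and 7.11%. The whole distribution also shifted: the median over all genes tested was -0.095 in MNC against Con, -0.12 in M1, -0.13 in M3 and -0.044 in M5. Relative to that median Eps8 was lower in MNC by -0.27 (limma adjusted p = 0.0678).

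Besides Eps8, 4 genes did not overlap between MNC and Con. Afdn was lower in MNC (log2 difference -0.14, limma adjusted p = 0.144) and so was Itga6, against 4.21, 3.64 and 3.54 FPKM in Con (-0.20, limma adjusted p = 0.129). Fscn1 was higher in MNC, against 4.49, 4.36 and 4.28 FPKM in Con (0.19 ± 0.068 SE, limma adjusted p = 0.0956). Nectin3 was higher too, against 168.34, 171.54 and 176.21 FPKM in Con (0.11 ± 0.040 SE, limma adjusted p = 0.0889). With libraries centred on their median, Nectin3 was called, at 0.20 (limma adjusted p = 0.0444), beside 12.9% of all genes. Of all genes, 46.5% did not overlap here, so 5 of 9 is near the background. The other members overlapped: Espn, with 36.52, 34.64 and 37.24 FPKM in Con, differed by -0.095, and Itgb1, with 18.91, 21.04 and 18.49, by -0.23. Nectin2 (27.79, 24.25 and 27.60 FPKM in Con) differed by 0.084, and Cadm1 (22.03, 22.71 and 20.85) by 0.022.

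M1, M3 and M5 were compared with the same Con libraries, so these calls are not independent of each other or of MNC. In M1, 3 of 9 members were called, all lower, beside 34.2% of all genes tested, 23.9% being lower. Eps8 had a log2 difference of -0.46 ± 0.065 (SE, limma adjusted p = 0.00977), and it was called in each fit without one library and, at -0.33, with centred libraries. Afdn, at 12.70, 12.84 and 12.60 FPKM in Con, had -0.25 ± 0.049 (SE, limma adjusted p = 0.0149). Its call was lost without Con replicate 1 or M1 replicate 1 (limma adjusted p = 0.0569 and 0.0527), where 8.67% and 14% of all genes were called. Itgb1 had -0.29 ± 0.084 (SE, limma adjusted p = 0.0407), and kept its call only without M1 replicate 2 of the 6 libraries, where 27% of all genes were called. In the other fits without one library that share was 8.67% to 30.2%. With centred libraries the calls were Eps8, lower, and Fscn1 (0.23), Nectin3 (0.28) and Cadm1 (0.22), higher, while Afdn (-0.13) and Itgb1 (-0.16) were not called. In that fit 21.2% of all genes were called.

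In M3, 4 of 9 members were called against Con, beside 22.1% of all genes, and 3 of these 4 were lower, beside 15.1%. Espn was lower by -0.43 ± 0.078 (SE, limma adjusted p = 0.0279), Eps8 by -0.43 ± 0.11 (0.0368) and Afdn by -0.26 ± 0.056 (0.0313). Nectin3 was higher by 0.21 ± 0.051 (SE, limma adjusted p = 0.0354). None of the 4 was called without any one of the Con libraries or without M3 replicate 1. Of all genes, 0%, 0.00689% and 5.32% were called without Con replicate 1, 2 and 3, and 0.42% without M3 replicate 1. Eps8 and Nectin3 also lost the call without M3 replicate 2 (limma adjusted p = 0.0544 and 0.0512), where 18.6% of all genes were called. Over the fits without one library the log2 difference was -0.47 to -0.36 for Espn and -0.50 to -0.33 for Eps8. It was -0.27 to -0.25 for Afdn and 0.20 to 0.23 for Nectin3. Centred on the library median, Nectin3 (0.37, limma adjusted p = 0.0257) was the only member called, beside 12.7% of all genes.

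In M5 no member was called against Con, beside 21.7% of all genes, and none had an unadjusted limma p under 0.05, beside 36.3%. Without M5 replicate 3, where again 36.3% of all genes were called at an adjusted p under 0.05, Espn (-0.49, limma adjusted p = 0.0115), Nectin2 (-0.34, limma adjusted p = 0.0294) and Nectin3 (0.21, limma adjusted p = 0.0197) were. Without M5 replicate 1 these genes differed from Con by -0.073, -0.056 and 0.089. None of them was called there or without M5 replicate 2, where 14.1% and 8.41% of all genes were called. Eps8, called lower in the other virus-treated groups, differed from Con by 0.028 in M5 on the log2 scale (95% interval -0.38 to 0.43), and by -0.16 without replicate 3. Ranked by group mean, Eps8 ran from M5 (4.38 ± 1.30 FPKM, SD) and Con (4.18 ± 0.16) to MNC (3.04 ± 0.29), M3 (2.86 ± 0.47) and M1 (2.78 ± 0.14), and the only gap between neighbouring groups lay between Con and MNC. Nectin3 ran the other way, with Con (172.0 ± 4.0 FPKM, SD) below MNC (186.2 ± 3.5) without overlap. Afdn was highest in Con (12.7 ± 0.12 FPKM, SD), apart from M5 (11.5 ± 0.34), which came next.

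Cell type markers moved in the same comparisons. Of the 12 Sertoli markers, 3 were called lower in MNC against Con, 8 in M1, 6 in M3 and 1 in M5, where 12.4%, 23.9%, 15.1% and 12.3% of all genes were called lower. With M5 replicate 3 left out, the M5 count was 5, beside 24% of all genes. All 9 spermatocyte markers were below Con in MNC, with 6 called, and summed to 583.6 to 616.8 FPKM where Con had 740.6 to 794.7. All 8 elongating spermatid markers were above Con in MNC, 3 called, and their summed level was 11692 to 22131 FPKM in Con and 22946 to 29193 in MNC. All 6 peritubular myoid markers were below Con in MNC, 3 called, with sums of 65.0 to 73.3 FPKM where Con had 83.7 to 92.4. The part of these shifts in Eps8, Afdn, Espn and Nectin3 was not tested.

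**Figure D4:**
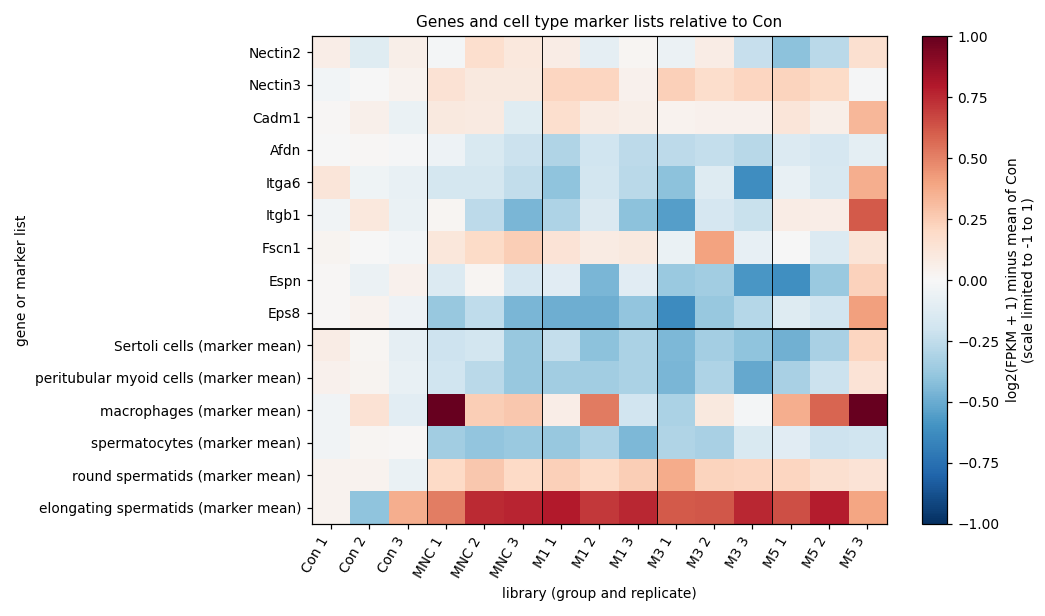
Each row is a gene or the mean of a cell type marker list, each column a library, and colour the difference in log2(FPKM + 1) from the Con mean (limited to -1 to 1). Eps8 and the Sertoli marker mean are below Con in MNC, M1 and M3 and above it in M5 replicate 3, and Nectin3 is the reverse except in that library, where it is near Con.

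The genes around these members were read from 4 lists of 55 genes, 47 of which were tested. No listed gene was called in M5, M1 or M3 against MNC, or in M5 against M1. The shares of all genes called were 5.65%, 0%, 0.00689% and 6.75%. At an unadjusted limma p under 0.05 the listed genes numbered 10 of 47 in M5, 1 in M1 and 3 in M3 against MNC. In M5 against M1 they numbered 6. The shares of all genes at that p were 24.9%, 5.94%, 9.43% and 25.4%. Without M5 replicate 3, 5 listed genes were called in M5 against M1, beside 11.6% of all genes: Arpc3 (0.46) and Arpc5 (0.34) higher, Fscn3 (-0.31), Src (-0.52) and Lamc3 (-0.52) lower. In M5 against MNC, the branched actin nucleators (the Arp2/3 subunits, Wasl and Cttn) were higher for 10 of 11, with a median log2 difference of 0.30, where the median over all genes tested was 0.025. Of the 14514 genes tested, 7911 were higher. Without M5 replicate 3, a setting chosen for these lists after seeing the data, the nucleators were higher for 8 of 11. Their median was then 0.15 (-0.024 over all genes, of which 6692 were higher). M5 replicate 3 held the highest value for 9 of these 11 genes. It also held the highest for 8 of 16 nectin and cadherin partners and 7 of 13 integrin ligands and scaffolds. The share of all genes highest in that library was not counted, so these counts have no background.

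Among other actin bundling genes, 2 of 10 tested were called higher in MNC against Con, beside 8.03% of all genes, and none lower. These were Fscn3, the testis fascin, at 105.7 ± 10.2 FPKM in MNC and 57.8 ± 17.9 in Con (SD, log2 difference 0.90, limma adjusted p = 0.0379), and Dbn1, drebrin (0.38, limma adjusted p = 0.0489). Fscn3 was called higher in M1 (0.99) and M3 (0.85) against Con as well, and Palld, palladin, was higher in M1 (0.40) and M3 (0.46). In M5 against Con only Lcp1, the plastin of leukocytes, was called, beside 9.32% of all genes called higher. Its level was 8.50 ± 3.28 FPKM in M5 and 2.49 ± 0.72 in Con (1.41, limma adjusted p = 0.0148, and 1.15 without M5 replicate 3). Of the macrophage markers 4 of 7 were called higher, and their part in the Lcp1 difference was not tested. Without M5 replicate 3, Baiap2, which links membranes to actin, was called as well, lower by -0.23 (limma adjusted p = 0.0236). Of the 11 branched actin genes, Cttn, cortactin, was called lower in MNC (-0.29, limma adjusted p = 0.0346), and Arpc1a in M1 (-0.36), M3 (-0.24) and M5 (-0.35) against Con. In M5 without replicate 3 the lower calls rose from 1 to 3, Arpc1a (-0.36), Cttn (-0.24) and Wasl (-0.29), beside 24% of all genes called lower.

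Of the 14 tested adhesion partners, 4 were called lower and 2 higher in MNC against Con, beside 12.4% and 8.03% of all genes. The catenins led the lower ones: Ctnna1, α-catenin, by -0.47 (limma adjusted p = 0.0269) and Ctnnd1, p120 catenin, by -0.31 (limma adjusted p = 0.0216). Jam3, a junctional adhesion molecule, was lower by -0.27 (limma adjusted p = 0.0237), and Nectin4 was higher by 1.21 from a level of 0.743 FPKM in Con. In M1 and M3 the catenins Ctnnb1 (-0.37 and -0.40), Ctnna1 (-0.47 and -0.45) and Ctnnd1 (-0.35 and -0.45) were called lower than Con. Ssx2ip, an afadin-binding protein, was higher in M1 (0.18), M3 (0.26) and M5 (0.24). In M5 Ctnnd1 (-0.43) and Cdh2, N-cadherin (-0.42), were lower. With M5 replicate 3 left out, the lower calls were 4, Ctnnd1 (-0.55), Cdh2 (-0.50), Ctnnb1 (-0.30) and Pvr (-0.31), beside 24% of all genes called lower, and Ssx2ip was at 0.29.

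Of the 12 tested integrin ligands and scaffolds, 4 were called lower in MNC against Con, 5 in M1, 5 in M3 and 0 in M5, and none higher. The shares of all genes called lower were 12.4%, 23.9%, 15.1% and 12.3%. Lamc3, the laminin γ3 chain of the apical junction, was at 5.38 ± 0.63 FPKM in MNC and 8.48 ± 0.87 in Con (SD, log2 difference -0.57, limma adjusted p = 0.0254). In M3 it was at 3.83 ± 0.89 FPKM (-0.98, limma adjusted p = 0.0254) and in M1 at 5.52 ± 0.38 (-0.54, limma adjusted p = 0.011). Ilk, integrin-linked kinase, Lims1 and Fermt2, which link integrins to actin, were lower in MNC by -0.23, -0.28 and -0.37. Vcl, vinculin, was lower in M1 (-0.30) and M3 (-0.42), Pxn, paxillin, in M1 (-0.21), and Tln1, talin, in M3 (-0.43). In M5 the count against Con depended on replicate 3: without it 7 of the 12 were called lower, Lamc3 (-1.06, limma adjusted p = 0.00483), Src, Pxn, Vcl, Zyx, Tln1 and Ilk, beside 24% of all genes called lower.

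Across the 15 libraries, which fall into groups and differ in marker levels, some members ran together. Pearson's r of log2(FPKM + 1) was 0.87 between Eps8 and Itgb1 and 0.80 between Eps8 and Itga6. Without M5 replicate 3 these were 0.76 and 0.64. Espn and Nectin2 had r = 0.79, and 0.92 after the group means were subtracted. Espn and Nectin3 had r = -0.83, and -0.79 without M5 replicate 3. Espn rose and fell with the mean of the 12 Sertoli markers (r = 0.86), and Nectin3 against it (r = -0.85). These relations were not particular to Sertoli markers. With peritubular myoid and spermatogonial marker means, r was 0.74 and 0.72 for Espn and -0.83 and -0.79 for Nectin3. Fscn1 had no such relation to the Sertoli marker mean (r = 0.040), and its closest member was Nectin2 (r = 0.64). These are descriptions over libraries that also differ in marker levels, and the part of cell composition in them was not tested.

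The genes most like each member over the 15 libraries were found by the same r among the named genes tested. For Itgb1 they were Glud1, Ssr3 and Mtpn (r = 0.99, 0.99 and 0.98). For Eps8 they were Tpm1, Ctnna1 and Kif5b (0.96, 0.96 and 0.96), and for Espn Kdm4b, Tfe3 and L3mbtl4 (0.94, 0.94 and 0.93). Nectin2 was close to Erf and Cep170b (0.92 and 0.91), and Nectin3 was most like Lrrc1, Nemp2 and Oser1 (0.93, 0.92 and 0.90). For Cadm1 the genes were Pcyt1b, Nedd9 and Itgbl1 (0.93, 0.89 and 0.88), of which Nedd9 and Itgbl1 fell to 0.75 and 0.74 without M5 replicate 3. Afdn was most like Zfp410, Skil and Tspan15 (0.95, 0.95 and 0.94), and Itga6 most like Jak1, Atic and Trak2 (0.93, 0.92 and 0.92). Fscn1 had the weakest likeness, to Foxred1, Oard1 and Actn4 (0.76, 0.76 and 0.76).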

How the data were processed

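RNA sequencing of 15 mouse testis libraries gave 1 table of FPKM to 2 decimals. Per the study's methods the authors sequenced poly(A) RNA on an Illumina HiSeq instrument, mapped reads with SOAPaligner and deposited FPKM values, scaled by mapped fragments and gene length. The labels name mm10, and the annotation was not given in the sources used here. The labels' extraction text speaks of sperm, while titles and sources name testis, which was used. Groups and replicate numbers came from the titles. Of 23510 gene IDs, 21143 (89.9%) matched RefSeq symbols (GRCm38.p6). The absolute depth is unknown. From 23 to 46 low genes per library, relative depth was 0.949 to 1.03, and FPKM summed to 470243 to 513817. The study's test models counts, so limma 3.58.1 (lmFit, eBayes with trend, R 4.3.3) was fitted on log2(FPKM + 1), 2 groups per fit, over the 14514 genes with a mean of 1 FPKM or more. Fold changes on this scale understate those of low genes. Benjamini-Hochberg adjustment ran over all genes tested, two-sided, called under 0.05. On 5 simulated sets of 14514 genes resembling M5 against MNC, 69.1% of 200 genes changed by 1 log2 unit were called, and 3.63% of calls were false. The simulated noise was independent between genes, and the largest member difference in M5 against MNC was 0.48. These rates therefore do not describe the chance of calling a member. All 9 members are named in each comparison with MNC and in MNC against Con, and elsewhere where called, with up to 4 called genes per partner list and comparison by lowest adjusted p, and the 3 genes of highest r per member, of which 1 is not reported here. Members, lists and tests were chosen with earlier results of these data known. Alternatives were a pseudocount of 0.1, no filter or a filter of 5 FPKM, median centring, eBayes without trend, a joint fit of all 5 groups, replicate number as blocking term, and leaving out each library. Python 3.11.15 and matplotlib 3.10.9 were also used.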

Additional observations from a re-analysis of the deposited data

Results flagged for a closer look

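A total of 3 differences between groups were singled out because every library of one group lay on one side of the control mean and every library of the other on the opposite side. Eps8 was above the MNC mean in all M5 libraries and below it in all M1 libraries, and M5 exceeded M1 by 0.48 on the log2(FPKM + 1) scale (limma adjusted p = 0.142 for M5 against M1). Itgb1 was above the Con mean in all M5 libraries and below it in all M1 libraries, a log2 difference of 0.54 (limma adjusted p = 0.0987). Itgb1 was likewise above the Con mean in M5 and below it in M3, a log2 difference of 0.56, and the difference between M5 and M3 was not tested. In each case M5 replicate 3 was the highest library. Groups of 3 were too small for a test of single outlying libraries.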

How the results depend on the processing

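No member was called in M5, M1 or M3 against MNC under any alternative run. For M1 and M3 these runs called at most 12 and 14 of all genes, so they could hardly have called a member. Of the counts of members called, the one for MNC against Con fell from 1 to 0 in the following settings. With no filter 6.94% of all genes were called, and with a filter of 5 FPKM (Eps8 is then not tested) 32.7%. With all 5 groups in one fit the share was 21.5%, and with the replicate number as a block 0.0689%. The count was 0 to 0 over the fits without one library, where 0.0551% to 17.2% of all genes were called. For M5 against Con the count was 0 to 3 over the fits without one library, 3 being without M5 replicate 3 (36.3% of all genes called). For M1 against Con it was 1 to 3, 1 being without Con replicate 1 or M1 replicate 1 (8.67% and 14% of all genes called). For M3 against Con it fell from 4 to 1 with centring and to 0 with the block, where 12.7% and 0% of all genes were called. It was 0 to 4 without one library, where 0% to 18.6% of all genes were called. For M5 against M1 it rose from 0 to 1 with all 5 groups in one fit (9.51% of all genes called). It was 0 to 1 without one library, 1 being without M5 replicate 3 (11.6%). The cause was not tested. Over all genes, the count for M5 against MNC ran from 14 with the block to 2424 with all 5 groups in one fit, against 820. The replicate numbers did not pair the libraries: the correlations of same-numbered deviations ran from -0.40 to 0.19, and no comparison had all 3 pairs over 0.1. The block is therefore given here only.

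Some uncalled differences changed sign. With centring, M5 against MNC became -0.018 for Nectin3 and -0.032 for Afdn. Without one library, the lowest and highest values were for M5 against MNC -0.025 to 0.093 for Nectin3, -0.034 to 0.050 for Afdn, -0.40 to 0.022 for Espn. They were for M1 against MNC -0.17 to 0.074 for Itgb1, for M3 against MNC -0.19 to 0.047 for Itgb1, -0.053 to 0.054 for Cadm1, -0.14 to 0.031 for Eps8, and for MNC against Con -0.015 to 0.093 for Cadm1.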
